A study of Mus musculus with 103 samples.

Results

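Hippocampal RNA of hemizygous TASTPM mice was compared with that of wild-type mice at 2 and at 4 months of age, taken as the ages before plaques form in this genotype, to see which changes both ages share. The libraries were taken by their genotype and age labels, 24 in all, beside 79 others in the series. There were 4 hemizygous mice (HET_TASTPM) and 8 wild-type mice (WILD) of 2 months, and 4 hemizygous and 8 wild-type mice of 4 months, with 1 library per mouse. All were male, and the strain of all 4 groups was given as C57BL/6J. The hemizygous mice were hemizygous for a pair of human transgenes, of which the first is APP with the Swedish mutation, and wild-type mice carried neither. Both transgenes are driven by the Thy1 promoter, which is active in neurons of these mice. The labels give no litters. The hemizygous mice bore consecutive numbers, 1105 to 1108 at 2 months and 832 to 835 at 4 months, and the wild-type mice numbers from 1808 up. Litter and genotype therefore cannot be told apart here. Of 48522 genes with a unique name, 22678 had a mean of at least 0.5 TPM (transcripts per 1000000) in at least 1 of the 4 groups and were tested. A difference is given on the log2(TPM + 0.5) scale, hemizygous minus wild-type, which understates the change of genes with low TPM, and a gene was called higher or lower when its limma p, adjusted by the Benjamini-Hochberg method over the 22678 genes, was under 0.05.

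APP is cleaved by β- and γ-secretase to release amyloid-β, which in TASTPM mice later aggregates into plaques that microglia surround. Brain cholesterol is made locally because lipoproteins of the blood do not cross the blood-brain barrier. Its synthesis runs from acetyl-CoA through mevalonate, farnesyl diphosphate, squalene and lanosterol, and the genes of the route are switched on together by the transcription factor SREBP2 when membrane sterol is low.

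The 24 libraries carried marker genes of excitatory and dentate granule neurons, in shares that varied. Slc17a7, the vesicular glutamate transporter of excitatory neurons, was at 459 to 464 TPM in hemizygous mice and 420.0 to 508 TPM in wild-type mice of 2 months, and at 378 to 434 TPM in hemizygous mice and 353 to 469 TPM in wild-type mice of 4 months. C1ql2, a marker of dentate granule cells, had a median of 34.3 TPM in hemizygous mice (28.3 to 51.0) and 67.2 TPM in wild-type mice (40.2 to 75.9) of 4 months, and Prox1, the transcription factor of these cells, 15.3 TPM in hemizygous mice and 25.3 TPM in wild-type mice. Neither was called (limma adjusted p = 0.171 for C1ql2 and 0.278 for Prox1). Of 20 genes of hippocampal excitatory neurons, 4 had a difference above 0 at 2 months and 6 at 4 months, with medians of -0.15 and -0.27, and of 16 genes of neighbouring brain regions 8 and 12, with medians of 0.02 and 0.28. No gene of the 2 lists was called at either age, and the part of regional content in the results was not tested. Choroid plexus, a tissue that borders the hippocampus, was present unevenly. Ttr, its most abundant transcript, had a median of 2453 TPM in hemizygous mice (996 to 6523) and 102 TPM in wild-type mice (23.3 to 6449) of 2 months, and of 2839 TPM in hemizygous mice (7.69 to 9626) and 38.9 TPM in wild-type mice (8.56 to 5538) of 4 months. All 12 choroid plexus markers had a difference above 0 at both ages and none was called. Sequencing lanes were not balanced either: 3 of the 4 hemizygous mice of 4 months, numbers 832, 833 and 834, bore lane number 8, which no wild-type mouse of that age had, so for these mice lane and genotype cannot be told apart. At 2 months hemizygous mice 1106 and 1107 bore lane numbers 2 and 7, which no wild-type mouse of that age had, and 5 of the 8 wild-type mice bore numbers 5 and 6, which no hemizygous mouse had. No pair of libraries was a duplicate, since at most 0.00648% of 15432 compared genes had the same value in both libraries of any of the 276 pairs. TPM keep no read depth, so the counting error of single values is unknown.

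At 2 months 16 genes were called, 12 higher (0.0529%) and 4 lower (0.0176%) in hemizygous mice, which is 0.0706% of the genes tested. At 4 months 158 genes were called (0.697%), of which 11 were lower (0.0485%) and the others higher (0.648%). Without adjustment, 1849 genes had p under 0.05 at 2 months (8.15%) and 3519 at 4 months (15.5%). The excess of higher calls at 4 months depended on the scaling: the median difference of all genes was 0.07 at that age and 0.01 at 2 months, and with libraries scaled to a median-of-ratios of 1 the calls at 4 months were 61 higher and 51 lower, with quantile normalization 82 higher and 48 lower. Leaving out the 3 libraries of lane 8 left 1 hemizygous mouse of 4 months, number 835. For that fit no count is given at 4 months, in the mean of the ages or for their difference. With lane as a covariate among the 24 libraries 2 genes were called at 4 months, App and Thy1. Only lane number 1 held both genotypes at that age, with 1 hemizygous and 2 wild-type mice.

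In all, 5 genes were called in the same direction at both ages (0.022% of the genes tested): App, Thy1, Sqle and Fdps were higher and Tmem132b was lower in hemizygous mice. With lane as a covariate among the 24 libraries, and with the choroid plexus level as a covariate, 2 of the 5 were called at both ages, App and Thy1. The 5 genes make up 33.3% of the 12 genes higher at 2 months and 2.72% of those higher at 4 months, and 25% of the 4 lower at 2 months and 9.09% of the 11 lower at 4 months. Of the genes higher at 4 months, 112 (76.2%) had a difference above 0 at 2 months, against 52.3% of all genes. The mice of the 2 ages were separate animals. The mean of the 2 age effects, which is more precise than either for a change of like size, was called for 170 genes (0.75%), 143 higher and 27 lower. With median-of-ratios scaling these were 88 higher and 102 lower. The difference between the 2 age effects was called for a single gene, Gm15446 (0.00441%). Every hemizygous mouse lay above every wild-type mouse of its age at both ages for 11 genes (0.0485%), Sqle, Fdps, App, Thy1, Tmem97, Tuba1a, Adssl1, Gfra4, Nedd8, Taf1c and 2310022B05Rik, and below for Tmem132b and Aim2 (0.00882%).

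**Figure D1:**
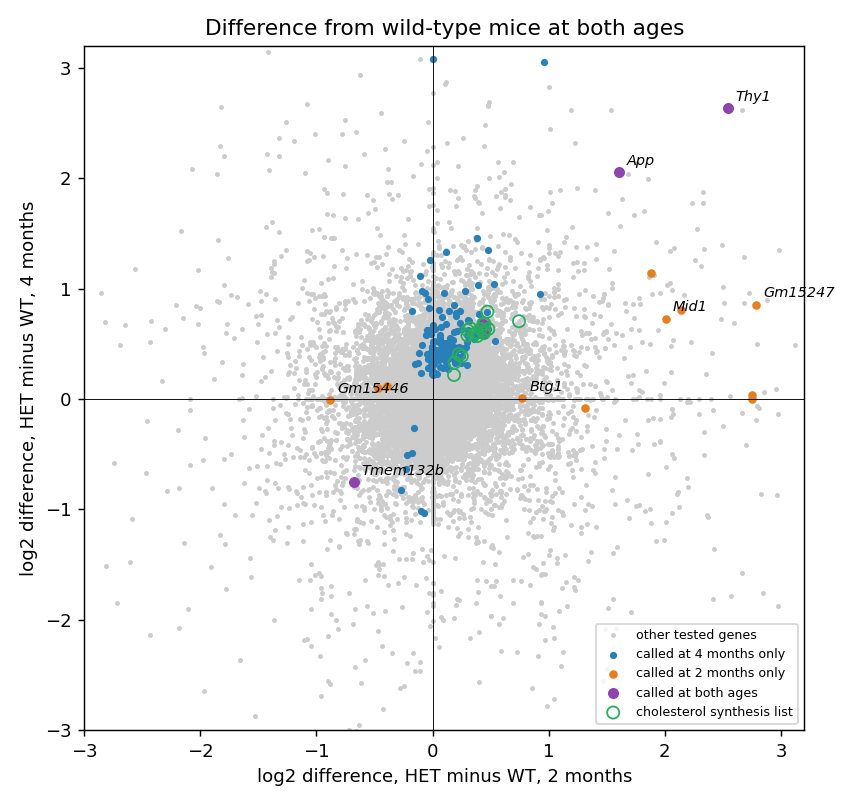
Difference between hemizygous and wild-type mice for each tested gene, at 2 months (horizontal axis) and at 4 months (vertical axis), both on the log2 scale. The 5 genes called at both ages are in purple, those called at 1 age in orange or blue, and the 18 cholesterol synthesis genes, ringed in green, all lie above 0 on both axes. The axes run from -3 to 3.2, and 45 genes lie outside them.

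RNA counted as App and as Thy1 was higher in every hemizygous mouse. App, which encodes the amyloid precursor protein (GRCm38 chromosome 16, 84949685 to 85173766, minus strand), was at 1541, 1340.2, 1675 and 1299.7 TPM in the 4 hemizygous mice of 2 months, against a lowest, median and highest value of 454, 472 and 535 TPM in the 8 wild-type mice. At 4 months App was at 1854, 2036, 2218 and 1586 TPM in hemizygous mice, against 386, 469 and 489 TPM in wild-type mice. The groups did not overlap at either age, with a log2 difference of 1.61 ± 0.08 (SE) at 2 months (limma adjusted p = 9.25e-12) and 2.06 ± 0.08 at 4 months (adjusted p = 4.5e-14). Thy1, a surface protein of neurons whose gene supplies the promoter of the transgenes (chromosome 9, 44043384 to 44048579, plus strand), was at 2992, 2929, 2324 and 2417 TPM in hemizygous mice of 2 months, against 410.4, 446 and 529 TPM in wild-type mice. At 4 months Thy1 was at 2289.9, 2847, 3009 and 2883 TPM in hemizygous mice, against 392.4, 447 and 478 TPM in wild-type mice. The Thy1 difference was 2.54 ± 0.09 at 2 months (limma adjusted p = 3.21e-15) and 2.64 ± 0.09 at 4 months (adjusted p = 1.45e-15). Reads were assigned to mouse transcripts, so RNA of the transgenes and of the mouse genes cannot be told apart in these values. App and Thy1 were called at both ages under every alternative run.

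**Figure D2:**
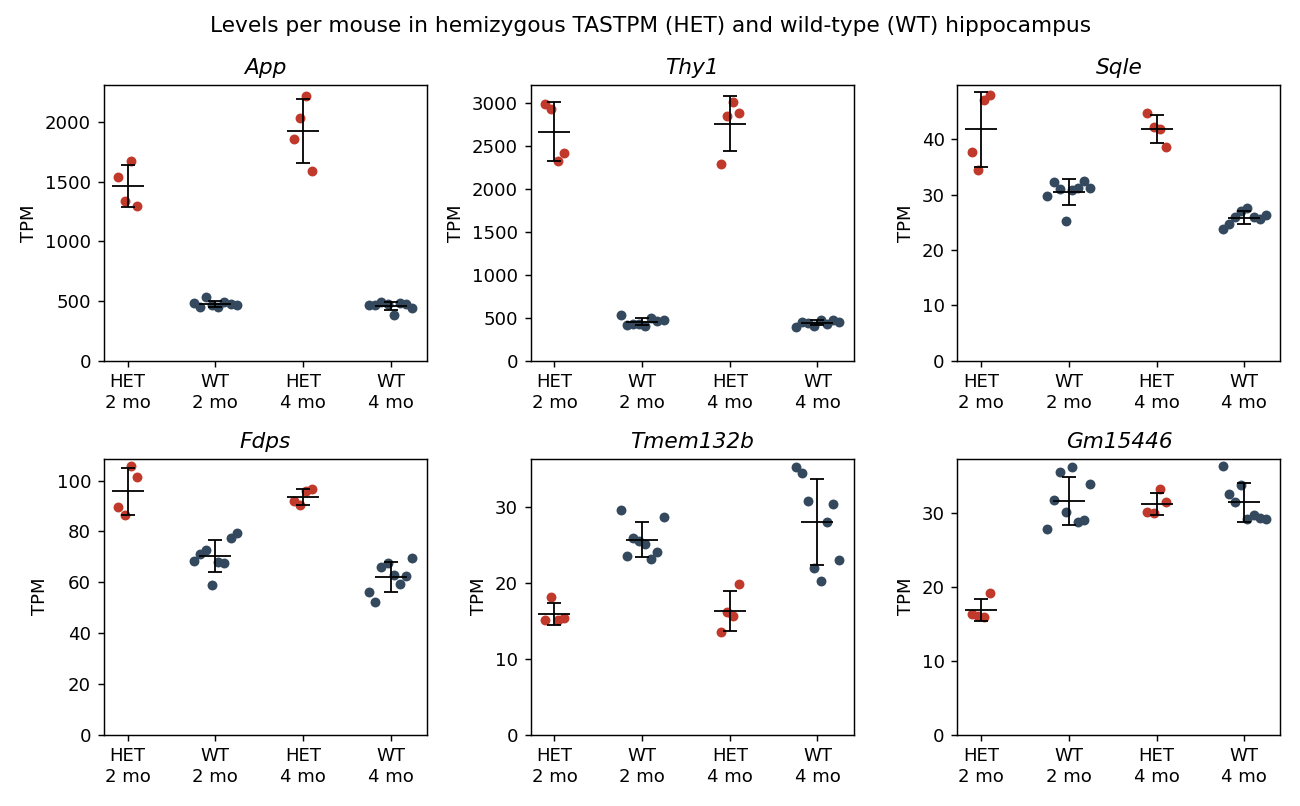
TPM of 6 genes in each hemizygous (HET, red) and wild-type (WT, dark) mouse at 2 and 4 months, 1 point per mouse, with the group mean and SD in black. Hemizygous mice lay above all wild-type mice at both ages for App, Thy1, Sqle and Fdps and below them for Tmem132b, while Gm15446 was lower at 2 months alone.

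Apart from App and Thy1, both genes called higher at the 2 ages belong to cholesterol synthesis. Sqle, squalene epoxidase, which commits squalene to the sterol branch (chromosome 15, 59315077 to 59331192, plus strand), was at 37.7, 34.4, 47.1 and 48.0 TPM in hemizygous mice of 2 months, against 25.2, 31.1 and 32.4 TPM as the lowest, median and highest of the wild-type mice. At 4 months Sqle was at 44.7, 42.2, 41.8 and 38.6 TPM in hemizygous mice, against 23.7, 25.99 and 27.5 TPM in wild-type mice. Each hemizygous mouse was above all wild-type mice of its age, by a log2 difference of 0.44 ± 0.08 at 2 months (limma adjusted p = 0.0252) and 0.68 ± 0.08 at 4 months (adjusted p = 8.97e-05). Fdps, farnesyl diphosphate synthase (chromosome 3, 89093588 to 89101959, minus strand), was at 89.5, 86.5, 106 and 101 TPM in hemizygous mice of 2 months, against 59.1, 69.7 and 79.3 TPM in wild-type mice. At 4 months Fdps was at 91.8, 90.2, 95.7 and 96.8 TPM in hemizygous mice, against 52.1, 62.6 and 69.4 TPM in wild-type mice. Its groups did not overlap at either age, with a difference of 0.44 ± 0.08 at 2 months (limma adjusted p = 0.0245) and 0.60 ± 0.08 at 4 months (adjusted p = 0.000473). Both calls at 2 months were lost when the mouse with the second highest or the highest Sqle, number 1107 or 1108, was left out. Over the 24 fits that each left out 1 mouse, Sqle passed at 2 months in 22 and Fdps in 21. Over 13 other settings Sqle passed at that age in 5 and Fdps in 6. The highest limma adjusted p over all alternatives at that age was 0.43 for Sqle and 0.203 for Fdps. The differences themselves stayed between 0.37 and 0.53 for Sqle and between 0.39 and 0.49 for Fdps at that age.

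The list of 18 cholesterol genes held enzymes of the route and genes tied to its control, among them the transcription factor gene Srebf2 and its retention factor Insig1. At 2 months 2 of the 18 were called higher, Sqle and Fdps, against 0.0529% of all genes tested, and at 4 months 12 were called higher, against 0.648%. With lane as a covariate among the 24 libraries 0 were called at either age. None was lower at either age. All 18 differences were above 0 at both ages, as was the case for 34.9% of all genes, with a list median of 0.38 at 2 months and 0.61 at 4 months. Every hemizygous mouse exceeded every wild-type mouse for 2 of the 18 at 2 months, against 0.454% of all genes, and for 15 of the 18 at 4 months, against 3.25%. In the mean of both ages 15 of the 18 were called higher, against 0.631% of all genes. The difference was larger at 4 than at 2 months for 17 of the 18 (median of the age difference 0.20, against 0.06 for all genes), but it was called for none, and 2 of the 18, Sqle and Hmgcs1, had an unadjusted p under 0.05, as did 8.04% of all genes. The list was chosen with earlier results of these libraries known.

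Of the enzymes before squalene, Hmgcs1, which makes HMG-CoA, was at 141, 155, 177 and 182 TPM in hemizygous mice of 2 months, against 104, 135 and 149.6 TPM as the lowest, median and highest of the wild-type mice, so that 1 hemizygous mouse lay within the wild-type range (difference 0.30, limma adjusted p = 0.262). At 4 months Hmgcs1 was at 169, 162, 155 and 177 TPM in hemizygous mice, against 97.3, 109 and 115 TPM in wild-type mice, and the groups were apart (0.62 ± 0.08, limma adjusted p = 0.000473). Mvd, which forms isopentenyl diphosphate, was at 19.5, 18.96, 18.4 and 17.3 TPM in hemizygous mice of 4 months, against 10.3, 11.8 and 13.001 TPM in wild-type mice, and was called there (limma adjusted p = 0.00356). Mvk, mevalonate kinase, was called at 4 months as well (limma adjusted p = 0.0165). Idi1, the isomerase of isopentenyl diphosphate, had a mean effect of 0.32 and was not called (limma adjusted p = 0.133).

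Of the enzymes that make squalene and the sterols, Fdft1, squalene synthase, was at 53.6, 44.1, 56.4 and 54.5 TPM in hemizygous mice of 2 months, against 31.0, 36.8 and 45.5 TPM in wild-type mice, where mouse 1106 fell inside the wild-type range (0.47, limma adjusted p = 0.143). At 4 months Fdft1 was at 57.8, 49.3, 54.2 and 53.6 TPM in hemizygous mice, against 25.9, 30.1 and 42.2 TPM in wild-type mice, the largest difference of the list at that age (0.79 ± 0.11, limma adjusted p = 0.000725). Nsdhl, a demethylase step after lanosterol that is encoded on the X chromosome, was at 23.5, 21.3, 22.3 and 17.4 TPM in hemizygous mice of 4 months, against 11.2, 13.2 and 15.6 TPM in wild-type mice (limma adjusted p = 0.00679). Both enzymes were higher in all hemizygous mice of 4 months than in any wild-type mouse. Cyp51 and Msmo1, which remove methyl groups from lanosterol, were called at 4 months too, with limma adjusted p = 0.0132 and 0.0157. Lss, lanosterol synthase, missed the threshold at 4 months (limma adjusted p = 0.0501) and passed it in the mean (adjusted p = 0.0339), whereas Dhcr7 and Sc5d, both late enzymes, passed at neither age nor in the mean (limma adjusted p = 0.0673 and 0.161 in the mean).

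Of the regulators, Insig1 and Srebf2 were higher at 4 months. Insig1, which holds SREBP2 in the endoplasmic reticulum, was at 48.3, 54.7, 64.8 and 65.7 TPM in hemizygous mice of 2 months, against 34.4, 42.1 and 50.8 TPM in wild-type mice. At 4 months Insig1 was at 67.2, 61.3, 50.7 and 59.0 TPM in hemizygous mice, against 30.1, 36.7 and 40.9 TPM in wild-type mice, and was called (0.68 ± 0.10, limma adjusted p = 0.00206). Srebf2, the gene of SREBP2 itself, was at 45.4, 45.5, 44.7 and 52.1 TPM in hemizygous mice of 4 months, against 31.3, 38.9 and 41.6 TPM in wild-type mice, a smaller difference that also passed (0.33 ± 0.08, limma adjusted p = 0.0441).

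**Figure D3:**
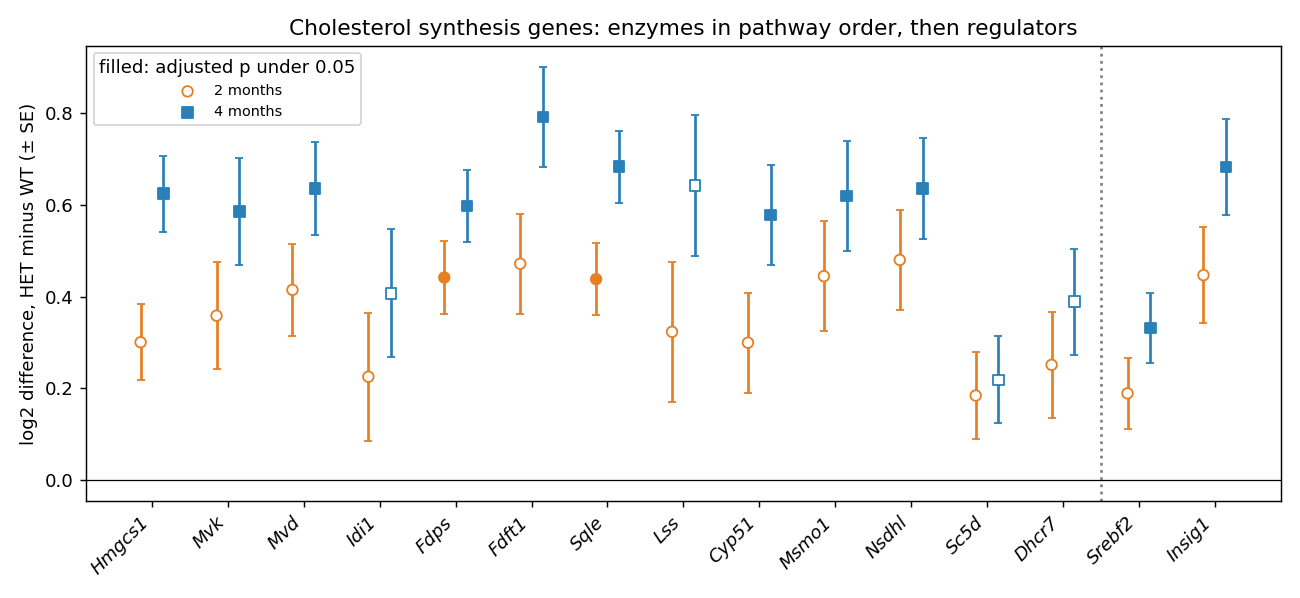
Log2 difference between hemizygous and wild-type mice, with its SE, for 13 cholesterol synthesis enzymes in pathway order and, right of the dotted line, Srebf2 and Insig1, at 2 months (orange circles) and 4 months (blue squares). Filled symbols have a limma adjusted p under 0.05, which holds for 2 of the genes drawn at 2 months and 11 at 4 months, and every symbol lies above 0.

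Promoters of genes that moved together are shown for 4 of the list, taken from RefSeq (GRCm38.p6), each covering 250 bases before and 50 after the annotated start and read on the strand of the gene. Capitals mark CCAAT, the site of the factor NF-Y that works beside SREBP2, on either strand (ATTGG is its reverse), and TCACNCCAC, the sterol regulatory element as searched, in which N is any base, on either strand. Hmgcs1 was chosen as the only list gene found with the second motif, Insig1 as the negative regulator, and Mvd and Nsdhl as called enzymes with differing numbers of CCAAT. Hmgcs1 lies at chr13:119690101-119690400 (plus strand), Insig1 at chr5:28071162-28071461 (plus), Mvd at chr8:122443373-122443672 (minus) and Nsdhl at chrX:72918271-72918570 (plus).
Hmgcs1: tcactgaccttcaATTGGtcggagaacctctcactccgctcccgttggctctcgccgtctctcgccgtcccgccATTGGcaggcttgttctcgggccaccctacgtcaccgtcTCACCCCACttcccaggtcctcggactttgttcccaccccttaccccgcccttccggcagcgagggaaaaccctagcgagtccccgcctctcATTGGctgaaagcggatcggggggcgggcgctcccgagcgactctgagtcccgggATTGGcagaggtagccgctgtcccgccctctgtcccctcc
Insig1: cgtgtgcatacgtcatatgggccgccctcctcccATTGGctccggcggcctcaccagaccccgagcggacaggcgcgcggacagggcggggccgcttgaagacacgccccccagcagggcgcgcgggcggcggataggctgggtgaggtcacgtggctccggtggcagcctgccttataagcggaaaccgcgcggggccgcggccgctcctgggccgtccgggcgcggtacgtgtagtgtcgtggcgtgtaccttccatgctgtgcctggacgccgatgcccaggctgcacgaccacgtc
Mvd: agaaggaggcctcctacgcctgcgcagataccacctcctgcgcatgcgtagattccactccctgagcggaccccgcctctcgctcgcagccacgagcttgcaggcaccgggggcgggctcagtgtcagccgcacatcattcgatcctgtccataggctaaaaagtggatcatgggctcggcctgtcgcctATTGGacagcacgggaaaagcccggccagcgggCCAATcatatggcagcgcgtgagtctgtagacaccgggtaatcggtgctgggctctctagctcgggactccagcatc
Nsdhl: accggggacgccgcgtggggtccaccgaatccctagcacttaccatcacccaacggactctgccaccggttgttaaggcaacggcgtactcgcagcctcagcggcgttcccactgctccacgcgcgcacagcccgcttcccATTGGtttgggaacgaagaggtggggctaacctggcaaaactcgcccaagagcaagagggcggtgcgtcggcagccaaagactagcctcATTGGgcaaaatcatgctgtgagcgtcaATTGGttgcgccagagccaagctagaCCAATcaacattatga
Hmgcs1 held 4 CCAAT and a single TCACNCCAC, which begins 137 bases before the start, Nsdhl held 4 CCAAT, Mvd 2 and Insig1 1. All 12 list genes with a promoter in the RefSeq table held CCAAT, as did 37.4% of 32851 promoters and 41.1% of 27025 genes. TCACNCCAC was in 1 of the 12, and in 1.24% of all promoters. The other 6 list genes, Sqle, Fdft1 and Fdps among them, were not matched. A match of letters is a description and was not tested for binding.

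For each mouse the 18 genes were averaged on the log2 scale relative to the median of the wild-type mice of its age. This cholesterol level was 0.21, 0.27, 0.48 and 0.50 in the hemizygous mice of 2 months and -0.26 to 0.18 in the wild-type mice, and 0.52 to 0.62 in the hemizygous mice and -0.08 to 0.09 in the wild-type mice of 4 months. The groups did not overlap at either age. The choroid plexus level, made the same way from 12 genes, was also higher in most hemizygous mice, at 1.48 to 3.23 in hemizygous mice of 2 months, against -0.41 to 2.62 in wild-type mice. Mouse 835, a hemizygous mouse of 4 months whose choroid plexus level was -0.47, had a cholesterol level of 0.60, and the 3 wild-type mice of 4 months with choroid plexus levels of 3.09, 4.17 and 3.61 had cholesterol levels of 0.01, -0.08 and -0.01. At 2 months only wild-type mouse 1810, at 2.62, lay within the choroid plexus levels of the hemizygous mice. The part of choroid plexus content in the cholesterol level was not tested. With the choroid plexus level as a covariate, an alternative added after the values were seen, 0 of the 18 genes were called at 2 months, with differences of 0.41 for Sqle and 0.44 for Fdps, and 14 at 4 months. Mouse 835 was also the hemizygous mouse of 4 months outside lane 8. Within its lane number, 1, all 18 genes were higher in it than in the mean of the 2 wild-type mice, with a median difference of 0.53. Lane numbers cover more than 1 run, so mice that share a lane number may not share a run. At 2 months the single hemizygous mouse of lane 8 was higher than the mean of its 2 wild-type mice for all 18 genes (median 0.49), and that of lane 4 was higher than its single wild-type mouse for 15 of 18 (median 0.27). Without the 3 lane 8 mice, 835 was the 1 hemizygous mouse left at 4 months, and the median difference of the 18 genes there was 0.58. In a bulk sample, more RNA per cell and more cells of a type that holds it cannot be told apart.

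**Figure D4:**
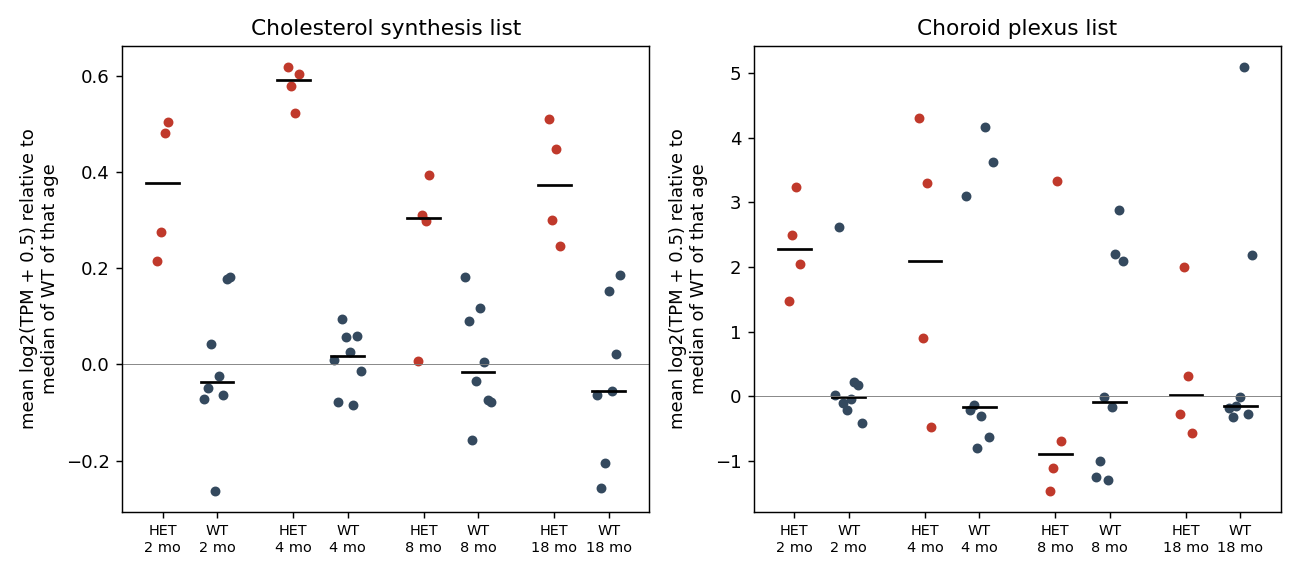
Mean log2(TPM + 0.5) of the 18 cholesterol synthesis genes (left) and of 12 choroid plexus genes (right) in each hemizygous (HET, red) and wild-type (WT, dark) mouse at 2, 4, 8 and 18 months, relative to the median of the wild-type mice of that age, with the group median as a black bar. The cholesterol level of hemizygous mice lay above that of all wild-type mice at 2, 4 and 18 months, while the choroid plexus level varied within both genotypes.

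Tmem132b, the gene of a transmembrane protein (chromosome 5, 125531774 to 125792583, plus strand), was the 1 gene called lower at both ages. It was at 15.1, 18.1, 15.1 and 15.3 TPM in hemizygous mice of 2 months, against 23.1, 25.4 and 29.7 TPM as the lowest, median and highest of the wild-type mice. At 4 months Tmem132b was at 13.5, 16.2, 15.6 and 19.8 TPM in hemizygous mice, against 20.3, 29.2 and 35.3 TPM in wild-type mice. All hemizygous mice were below all wild-type mice, with a difference of -0.68 ± 0.13 at 2 months (limma adjusted p = 0.0439) and -0.75 ± 0.13 at 4 months (adjusted p = 0.00679). The gene passed at 2 months in 8 of the 24 fits that each left out 1 mouse (adjusted p = 0.0206 to 0.133), and at 4 months in 23 of them. Without the 3 hemizygous mice of lane 8, which left 1 hemizygous mouse of 4 months, the difference at that age was -0.46. With lane as a covariate among the 24 libraries Tmem132b was not called at 4 months. For the 3 mice of lane 8, lane and genotype cannot be told apart.

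Other genes were called at 2 months and not at 4 months. Gm15446, a predicted gene (chromosome 5, 109923400 to 109943936), was at 16.4, 16.1, 15.9 and 19.2 TPM in hemizygous mice of 2 months, against 27.8, 30.9 and 36.2 TPM as the lowest, median and highest of the wild-type mice (-0.89 ± 0.08, limma adjusted p = 5.8e-07). At 4 months Gm15446 was at 30.1, 30.0, 33.2 and 31.5 TPM in hemizygous mice, against 29.1, 30.6 and 36.3 TPM in wild-type mice (-0.01, limma adjusted p = 0.984). It was the gene whose age effects differed, by 0.88 ± 0.11 (limma adjusted p = 0.00114), and the other 95 libraries of the series, without the 8 hemizygous ones of 2 and 4 months, lay between 23.4 and 44.7 TPM. With lane as a covariate among the 24 libraries the difference between ages was 0.73 (limma adjusted p = 0.551). Btg1, an inhibitor of proliferation, was at 26.1, 31.5, 22.8 and 24.3 TPM in hemizygous mice of 2 months, against 11.8, 15.6 and 19.3 TPM in wild-type mice (0.77 ± 0.14, limma adjusted p = 0.0376), with a difference of 0.01 at 4 months. It passed at 2 months in 12 of the 24 fits that each left out 1 mouse (adjusted p up to 0.158) and in 6 of 13 other settings (up to 0.342). Btrc, a subunit of a ubiquitin ligase, was lower at 2 months, at 31.2, 27.8, 35.2 and 28.3 TPM in hemizygous mice, against 33.9, 40.03 and 45.3 TPM in wild-type mice, 1 of which lay among the hemizygous values (-0.39 ± 0.08, limma adjusted p = 0.0447). Btrc passed in 5 of the 24 fits that left out a mouse (adjusted p up to 0.19) and in 7 of 13 other settings (up to 0.29). Eif3j2, the fourth gene lower at that age, has a near-identical copy, so its share of reads is uncertain.

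A second group of the 2-month calls came from 1 end of the X chromosome. Mid1, a ubiquitin ligase of microtubules whose gene spans the pseudoautosomal boundary in laboratory mice (chromosome X, 169685199 to 170005736, plus strand), was at 156, 99.9, 119.7 and 95.9 TPM in hemizygous mice of 2 months, against 12.2, 31.2 and 56.0 TPM in wild-type mice (2.01 ± 0.32, limma adjusted p = 0.00714). At 4 months Mid1 was at 95.7, 71.2, 39.97 and 76.5 TPM in hemizygous mice, against 30.6, 35.9 and 83.6 TPM in wild-type mice, where the groups overlapped (0.73, limma adjusted p = 0.287). The other 95 libraries of the series held 12.2 to 83.6 TPM, so all 4 hemizygous mice of 2 months exceeded them. The 3 other called genes lie inside Mid1 on the opposite strand: G530011O06Rik, Gm15726 and Gm15247. Gm15726 was at 40.8, 27.8, 35.0 and 26.4 TPM in hemizygous mice of 2 months, against 3.80, 7.11 and 12.0 TPM in wild-type mice (limma adjusted p = 0.00569). The libraries were made with a kit that marks strand, but the strand setting of the quantification is not given in the sources used here, so reads of Mid1 and of these 3 genes may not be separate. Gm21742, a predicted gene of the Y chromosome, was also called at 2 months (limma adjusted p = 0.00256), at 6.27, 0.928, 3.71 and 9.16 TPM in hemizygous mice, against 0.00170, 0.0195 and 1.99 TPM in wild-type mice. The X-linked neighbours Msl3, Arhgap6 and Hccs were not called at either age, and none of these genes was called at 8 or 18 months.

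Among the genes called at 4 months and not at 2 months, C1qb, a chain of the complement starter C1q that microglia make, was at 66.0, 65.0, 67.1 and 54.7 TPM in hemizygous mice of 4 months, against 40.01, 43.4 and 49.5 TPM in wild-type mice (0.51 ± 0.08, limma adjusted p = 0.00158). At 2 months C1qb was at 64.4, 54.3, 63.1 and 69.1 TPM in hemizygous mice, against 50.3, 56.2 and 62.6 TPM in wild-type mice, and the difference between the age effects was not called. C1qc passed at 4 months (limma adjusted p = 0.034) and C1qa in the mean of both ages (0.30 ± 0.05, limma adjusted p = 0.0082). Of 14 complement genes tested, 0 were called at 2 months, against 0.0706% of all genes, and 2 at 4 months, against 0.697%, with list medians of 0.10 and 0.07. Without the 3 lane 8 mice, which left 1 hemizygous mouse of 4 months, C1qb had a difference of 0.31 at that age.

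Cxcl12, a chemokine of vessels and neurons, was lower at 4 months, at 21.2, 18.8, 22.5 and 23.4 TPM in hemizygous mice, against 27.8, 33.9 and 37.4 TPM in wild-type mice (-0.64 ± 0.09, limma adjusted p = 0.00161). Vip, a peptide of interneurons, was at 37.5, 37.8, 35.2 and 35.6 TPM in hemizygous mice of 4 months, against 13.6, 17.2 and 25.3 TPM in wild-type mice (1.03 ± 0.23, limma adjusted p = 0.0339), and was the 1 of 18 interneuron genes called, against 0.697% of all genes. The Vip call held in 16 of the 24 fits that left out a mouse (adjusted p up to 0.133) and in 7 of 13 other settings, and with lane as a covariate among the 24 libraries the difference was 0.47 (limma adjusted p = 0.74). Cplx1, which clamps vesicle fusion, was at 369, 382, 326 and 329 TPM in hemizygous mice of 4 months, against 204, 245 and 257 TPM in wild-type mice (0.55 ± 0.09, limma adjusted p = 0.00477). With Sv2a, a protein of synaptic vesicles (0.38 ± 0.07, limma adjusted p = 0.00826), it made up the 2 of 20 presynaptic genes called at 4 months, against 0.697% of all genes. None of 20 postsynaptic genes was called at either age. Mme, neprilysin, a peptidase that degrades amyloid-β, was at 5.44, 3.87, 4.26 and 7.01 TPM in hemizygous mice of 4 months, against 1.94, 2.42 and 2.53 TPM in wild-type mice (0.96 ± 0.19, limma adjusted p = 0.0165), the 1 of 30 APP processing genes called, against 0.697% of all genes. At 2 months Mme was at 2.16, 2.20, 2.94 and 2.88 TPM in hemizygous mice, within the 1.61 to 4.24 TPM of wild-type mice.

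Large fitted differences at 4 months included those of small RNA genes. Gm24132, annotated as a miRNA gene (chromosome 8, 96656129 to 96656219), was listed at 0 in all 4 hemizygous mice of 4 months, against 5.34, 19.9 and 29.4 TPM as the lowest, median and highest of the wild-type mice. Mir6397 was at 6.18, 22.8, 12.0 and 8.04 TPM in hemizygous mice of 4 months and listed at 0 in all 8 wild-type mice. Neither was called at 2 months, and no fold is given against a group at 0. The libraries were made from poly(A) RNA and size-selected, so values of such short genes may not give miRNA levels. At 2 months Mir6397 was at 13.7 TPM in hemizygous mouse 1108 and listed at 0 in the other hemizygous mice. Of the 158 genes called at 4 months 142 are protein coding and 7 are under 200 bases long, and of the 16 at 2 months 10 are protein coding.

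Further genes whose groups were apart at both ages were called in the mean of the 2 ages. Tmem97, a sterol-responsive membrane protein, was at 14.4, 14.8, 18.1 and 21.7 TPM in hemizygous mice of 2 months, against 8.68, 11.8 and 13.8 TPM in wild-type mice. At 4 months Tmem97 was at 13.9, 14.3, 13.4 and 11.9 TPM in hemizygous mice, against 7.91, 8.66 and 10.9 TPM in wild-type mice, apart at both ages (mean 0.53 ± 0.08, limma adjusted p = 0.00185). Tuba1a, an α-tubulin of neurons with near-identical paralogs, was at 1107, 1038, 1207 and 1101 TPM in hemizygous mice of 2 months, against 862, 991 and 1034 TPM in wild-type mice. At 4 months Tuba1a was at 1095, 1054, 1043 and 944 TPM in hemizygous mice, against 679, 742 and 823 TPM in wild-type mice (mean 0.33 ± 0.04, limma adjusted p = 0.000252). Aim2, a sensor of cytosolic DNA, was at 5.52, 3.65, 5.82 and 5.20 TPM in hemizygous mice of 2 months, against 6.05, 7.46 and 10.3 TPM in wild-type mice. At 4 months Aim2 was at 5.10, 4.32, 6.00 and 6.10 TPM in hemizygous mice, against 6.48, 7.96 and 13.3 TPM in wild-type mice (mean -0.60 ± 0.12, limma adjusted p = 0.019).

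Immediate early genes, which neurons switch on with activity, were not called at either age. Of 22 tested, 21 had a difference above 0 at 2 months, 18 at 4 months and 18 at both, with medians of 0.54 and 0.58, against 52.3% and 61.6% of all genes above 0. In the mean of both ages 3 were called higher, Junb, Nr4a1 and Dusp1, against 0.631% of all genes. Nr4a1, a nuclear receptor, was at 47.3, 60.6, 49.3 and 109.6 TPM in hemizygous mice of 2 months, against 28.3, 38.2 and 65.5 TPM in wild-type mice, and mouse 1108 was the highest. At 4 months Nr4a1 was at 46.5, 54.1, 44.0 and 68.0 TPM in hemizygous mice, against 18.8, 29.5 and 40.2 TPM in wild-type mice, with no overlap (mean 0.76 ± 0.17, limma adjusted p = 0.0332). Mouse 1108 also had 79.1 TPM of Fos, the other hemizygous mice of 2 months 18.3 to 23.5 TPM and the wild-type mice 8.08 to 33.2 TPM. The 3 calls became 0 with lane as a covariate and without a filter on low values, and 0 or 1 in 18 of the 24 fits that each left out 1 mouse. In mice of 8 months, which are other animals, 2 of the 22 had a difference above 0 (median -0.91), with 13 lower, against 1.87% of all genes, and 1 higher. Without the 2 wild-type mice of 8 months with high levels of genes of neighbouring regions, 13 were lower and 0 higher (median -0.80). At 18 months 0 of the 22 were called.

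Microglial genes were followed with lists of 2 states. Of 29 genes of plaque-associated microglia, 0 were called at 2 months, against 0.0706% of all genes, and 1 at 4 months, against 0.697%, which was Ctsb, the protease cathepsin B, and of 23 genes of homeostatic microglia none was called at either age. Trem2, the lipid receptor of microglia, had a median of 18.7 TPM in hemizygous mice and 17.1 TPM in wild-type mice of 2 months, and of 18.7 TPM in hemizygous mice and 16.1 TPM in wild-type mice of 4 months, and the ranges overlapped. Apoe, the main brain apolipoprotein, had a median of 2713 TPM in hemizygous mice and 2599 TPM in wild-type mice of 2 months, and of 2809 TPM in hemizygous mice and 2831 TPM in wild-type mice of 4 months, and was called at neither age. Clec7a, a receptor of plaque microglia, had a difference of 0.42 at 2 months (limma adjusted p = 0.604) and 0.66 at 4 months (adjusted p = 0.12). Of the 14 Alzheimer risk gene orthologues that the study names, 12 passed the filter on low values, with list medians of 0.08 at 2 months and 0.07 at 4 months. None of the 12 was called, against 0.0706% of all genes at 2 months and 0.697% at 4 months. Oas1a and Lilra5 stayed under the filter. Of the immune network of the study 125 genes were tested. At 2 months 0 were called, against 0.0706% of all genes, and at 4 months 2, C1qb and C1qc, against 0.697%. Of its larger immune module 1468 were tested, with 0 higher and 1 lower at 2 months and 10 higher and 1 lower at 4 months. The 10 are 0.681% of the module, near the 0.648% of all genes higher at that age. The study chose both lists with these libraries, so they are not independent evidence.

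**Figure D5:**
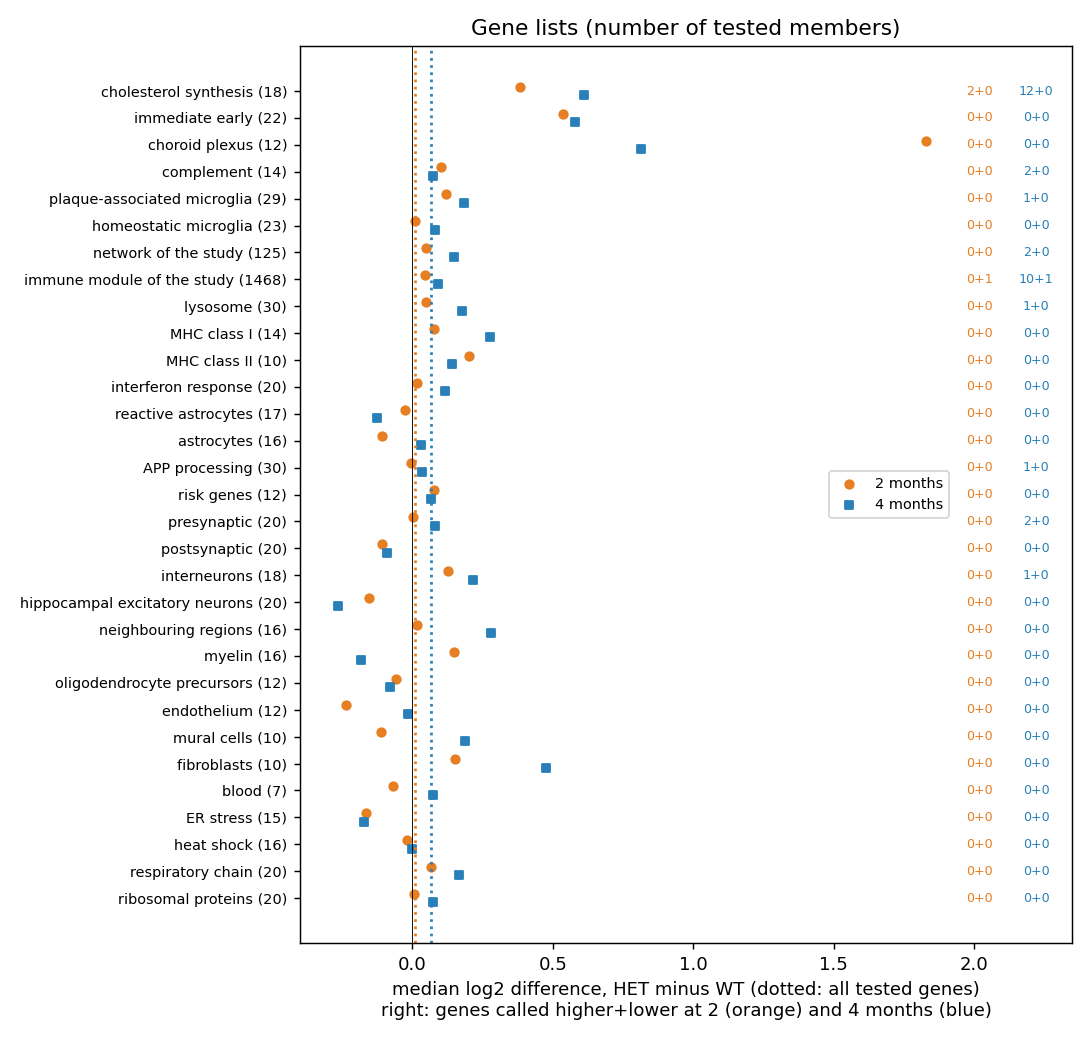
Median log2 difference between hemizygous and wild-type mice for each gene list drawn, at 2 months (orange circles) and 4 months (blue squares), with the number of tested members in brackets and, at the right, the number called higher and lower. Some lists, among them that of App and Thy1, are not drawn. Dotted lines mark the median of all tested genes, 0.01 and 0.07. Among the lists drawn, that of choroid plexus has the largest medians, 1.83 and 0.81, with no member called, and the cholesterol synthesis list has 2 and 12 members called higher.

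Mice of 8 and 18 months, 4 hemizygous and 8 wild-type of 8 months and 4 hemizygous and 7 wild-type of 18 months, were fitted separately and gave the levels of the shared genes in other animals. Among them, 2 wild-type mice of 8 months, numbers 1462 and 2342, carried genes of neighbouring brain regions more than 1.5 on the log2 scale above those of hippocampal excitatory neurons. At 8 months 1702 genes were called (7.51%) and at 18 months 1599 (7.05%). Of the 5 genes shared by 2 and 4 months, 4 were called in the same direction at 8 months and 5 at 18 months. Sqle ranged from 29.9 to 44.8 TPM in hemizygous mice of 8 months (median 40.6), against 25.2 to 30.4 TPM in wild-type mice (median 27.4), and the lowest hemizygous mouse lay within the wild-type range (0.49 ± 0.12, limma adjusted p = 0.0156). At 18 months Sqle ranged from 38.0 to 46.8 TPM in hemizygous mice, against 20.6 to 34.1 TPM in wild-type mice, with no overlap (0.63 ± 0.12, limma adjusted p = 0.00299). Fdps ranged from 74.3 to 104 TPM in hemizygous mice of 8 months, against 56.9 to 82.3 TPM in wild-type mice (0.50 ± 0.10, limma adjusted p = 0.00696), and from 91.8 to 119 TPM in hemizygous mice of 18 months, against 52.8 to 70.7 TPM in wild-type mice (0.76 ± 0.11, adjusted p = 0.000158). Tmem132b ranged from 17.1 to 25.8 TPM in hemizygous mice of 8 months, against 20.2 to 30.8 TPM in wild-type mice, and was not called (-0.35 ± 0.12, limma adjusted p = 0.07). At 18 months Tmem132b ranged from 15.2 to 24.8 TPM in hemizygous mice, against 28.3 to 31.3 TPM in wild-type mice (-0.73 ± 0.12, limma adjusted p = 0.000906). In other lines of 18 months, which share these wild-type controls, Tmem132b ranged from 6.99 to 7.77 TPM in 3 homozygous TASTPM mice (HO_TASTPM). It ranged from 25.2 to 28.4 TPM in 4 mice with the APP transgene alone (TAS10). In 2 mice with a human tau transgene instead (TAU) it was at 20.29 and 25.86 TPM. Tau mice of 2 months ranged from 11.84 to 35.14 TPM and those of 4 months from 11.04 to 28.72 TPM. The lowest tau mouse of each of these younger ages lay below all hemizygous mice of that age.

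Of the 18 cholesterol genes, 6 were called higher at 8 months, against 5.64% of all genes, and 9 at 18 months, against 5.19%, with none lower at either age. Without the 2 wild-type mice with genes of neighbouring regions, 7 were called at 8 months and 9 at 18 months. Sqle, Fdft1, Fdps, Msmo1, Nsdhl and Mvk were called at both later ages, and Hmgcs1 and Mvd were among those called at 18 months. Nsdhl ranged from 18.7 to 25.0 TPM in hemizygous mice of 8 months, against 10.9 to 15.2 TPM in wild-type mice (0.80 ± 0.13, limma adjusted p = 0.00151), and from 20.9 to 26.7 TPM in hemizygous mice of 18 months, against 9.58 to 16.1 TPM in wild-type mice (0.88 ± 0.13, adjusted p = 0.000362). The cholesterol level per mouse was 0.01 to 0.39 in hemizygous mice of 8 months, against -0.16 to 0.18 in wild-type mice, and mouse 460 alone of the hemizygous mice fell in the wild-type range. At 18 months it was 0.25 to 0.51 in hemizygous mice, against -0.26 to 0.19 in wild-type mice. Lane numbers 7 and 8 each hold 2 hemizygous mice and 1 wild-type mouse of 8 months. Within them 18 and 16 of the 18 genes were higher in the mean of the hemizygous mice than in the single wild-type mouse. The share of all genes higher within these lanes is not given. Choroid plexus genes had a difference above 0 for 2 of 12 at 8 months and 0 of 12 at 18 months. Of the 143 genes higher in the mean of 2 and 4 months, 91 had a difference above 0 at 8 months, against 55.2% of all genes, and 21 (14.7%) were called higher there, against 5.64% of all genes.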

How the data were processed

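RNA of male mouse hippocampus was sequenced, 1 library per mouse, and 24 of the 103 libraries were used for 2 and 4 months. The authors made poly(A) libraries with a kit that marks strand, sequenced paired reads, trimmed adapters (Trim Galore), estimated transcript abundance with Salmon from Ensembl transcripts (GRCm38) and obtained gene values through tximport. Versions of these tools were not found in the sources used. The deposited values are TPM, which sum to 1000000 in each library over 48526 rows, so read depth is unknown and no counting interval is given. 4 rows under 2 duplicated names were left out. Genes were filtered at a mean of 0.5 TPM in at least 1 of the 4 groups.

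log2(TPM + 0.5) of the 24 libraries entered a limma 3.58.1 model (R 4.3.3) that gave each of the 4 groups its own mean and left 20 residual degrees of freedom, moderated by empirical Bayes along a trend in the mean. Contrasts were hemizygous minus wild-type at each age, their mean and their difference, all two-sided, with Benjamini-Hochberg adjustment at 0.05. Mice of 8 and 18 months were fitted apart in the same way. The procedure was tested on simulated data. Tables and figures used Python 3.11.15, pandas 2.3.3, numpy 2.4.6 and matplotlib 3.10.9. Coordinates of 21492 tested genes are from GENCODE M21 (GRCm38), and promoters are from RefSeq (GRCm38.p6).

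Named genes are those called at both ages, the 10 with the largest difference among called genes without overlap at each age and in the mean, the 5 with the smallest p for the age difference, the 2 of each list with the smallest p, transgene-related genes and risk genes. A few others are marked as chosen later or belong to a list described in full. The members and lists were chosen with earlier results of these data known. Alternatives were another pseudocount, filter, scaling, moderation, set of libraries, lane as a covariate and each mouse left out. A choroid plexus covariate, leaving out 3 mice of lane 8 and leaving out 2 wild-type mice of 8 months were added after the values were seen. Lane numbers cover more than 1 run, with 20 libraries under number 1 and 19 under number 2. 1 line and some single genes are not reported here.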

Additional observations from a re-analysis of the deposited data

Results flagged for a closer look

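Among 207 groups of 4 or 8 mice for 53 named genes, 23 held 1 mouse set apart from its group by Dixon's test, where chance gives about 1 in 20. Among the genes called at both ages, Tmem132b in hemizygous mice of 2 months was highest in mouse 1106 at 18.115 TPM, the others being at 15.063 to 15.339 TPM. App in wild-type mice of 2 months was highest in mouse 1824 at 534.879 TPM (others 454.454 to 489.528) and in those of 4 months lowest in mouse 2351 at 385.725 TPM (others 445.804 to 488.632). Sqle in wild-type mice of 2 months was lowest in mouse 2360 at 25.229 TPM (others 29.745 to 32.433).

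Of the other cholesterol genes, Srebf2 was at 52.114 TPM in hemizygous mouse 835 of 4 months, Lss at 19.682 TPM in wild-type mouse 2338 and Insig1 at 30.137 TPM in wild-type mouse 2392, both of 4 months. Mouse 835 was also lowest of the hemizygous mice of 4 months for C1qb, at 54.744 TPM. Cxcl12 was lowest at 27.802 TPM in wild-type mouse 2338, Prepl, a peptidase-like gene, at 125.109 TPM in wild-type mouse 2351, both of 4 months, and Adssl1, a muscle-type adenylosuccinate synthase, at 6.097 TPM in wild-type mouse 2376 of 2 months. Vip was highest at 57.321 TPM in wild-type mouse 1824 of 2 months.

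The other cases were predicted or small RNA genes. In hemizygous mice of 2 months Gm23971 was at 16.73 TPM in mouse 1107, Mir6397 at 13.701 TPM in mouse 1108 and Gm44377 at 8.702 TPM in mouse 1105, each listed at 0 in the other 3. Gm44377 was at 15.566 TPM in wild-type mouse 1810 of 2 months. Gm24132 was at 5.336 TPM in wild-type mouse 1839 of 4 months. AC132621.1 was at 0.058 TPM in hemizygous mouse 832 of 4 months, at 0.172 TPM in wild-type mouse 1824 of 2 months and at 0.487 TPM in wild-type mouse 2351 of 4 months. Gm21742 was at 1.991 TPM in wild-type mouse 2438 of 2 months and at 0.026 TPM in wild-type mouse 2392 of 4 months.

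Gm15446 stood out on 2 counts. Its hemizygous minus wild-type difference was 0.877 larger at 4 than at 2 months, which passed the limma test of the age difference (adjusted p = 0.00114), with all 4 hemizygous mice of 2 months below all 8 wild-type mice. Within those 4, mouse 1108 was highest at 19.166 TPM, the others being at 15.917 to 16.382 TPM.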

How the results depend on the processing

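Of 93 called values of named genes, none changed direction in any of 3391 comparisons with an alternative. Over other settings 897 kept their call and 262 lost it, and 1939 kept and 293 lost it when a mouse was left out. The 16 genes called at 2 months became 25 with all libraries of the series in the fit, 9 with only the 2 groups of that age, 8 with lane as a covariate among the 24 libraries, 26 with lane among all libraries and 10 with the choroid plexus covariate. The 158 at 4 months became 354 with only the 2 groups, 2 and 73 with lane among the 24 and among all libraries and 65 without the 3 mice of lane 8. The 0.75% of genes called in the mean became 0.295% and 0.454% with lane among the 24 and among all libraries, 0.322% with the choroid plexus covariate and 0.353% without the lane 8 mice. The age difference, called for 1 gene, was called for 3 without a filter, 4 with all libraries, 0 and 3 with lane among the 24 and among all libraries and 56 without the lane 8 mice. A fit of only the 2 groups of 1 age gives neither a mean nor an age difference. The split of calls in the mean, 143 higher and 27 lower, was 88 and 102 with median-of-ratios scaling and 94 and 93 with quantile normalization, and the 12 higher and 4 lower at 2 months were 9 and 5 with quantile normalization.

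The 5 shared genes became 3 with quantile normalization and with only the 2 groups of each age (App, Thy1 and Tmem132b), and 3 with lane among all libraries (App and Thy1 among them). They became 2, App and Thy1, with lane among the 24 libraries and with the choroid plexus covariate. The 2 cholesterol genes higher at 2 months became 0 with quantile normalization, with only the 2 groups, with lane among the 24 libraries, with the choroid plexus covariate and without the lane 8 mice, and 1 with median-of-ratios scaling, with all libraries and with lane among all libraries. The 12 at 4 months became 0 with lane among the 24 libraries. Without the lane 8 mice, with 1 hemizygous mouse left at 4 months, the list median was 0.58 at that age and 0.50 in the mean. The 3 immediate early genes became 0 without a filter and with lane among the 24 or among all libraries, and 1 with the choroid plexus covariate. The causes were not tested.

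Leaving out each mouse in turn gave 11 to 24 genes at 2 months, 25 to 268 at 4 months, 0.295% to 1.56% of genes in the mean, 1 to 6 for the age difference, 2 to 7 shared genes, 0 to 3, 7 to 15 and 12 to 16 cholesterol genes at 2 months, at 4 months and in the mean, and 0 to 5 immediate early genes. The count at 4 months was 25 without hemizygous mouse 832 (and 7 cholesterol genes), 63 without 833, 68 without 834 and 261 without 1106, and 268, 239, 101, 92 and 102 without wild-type mice 2338, 1824, 2392, 2393 and 1839. The shared genes were 2 without hemizygous mouse 1107, 3 without 1108 and 3 without wild-type mouse 2398, and the cholesterol genes at 2 months were 0, 0 and 1 without these mice. The share in the mean was 1.56% without mouse 1106, 0.295% without 1107, 0.384% without 1108, 0.3% without 832, 0.344% without 833 and 1.49% without wild-type mouse 1824. No paired analysis was possible because the labels pair no mice across groups and replicates were numbered in accession order.

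With 4 hemizygous mice a group, unbalanced lanes and unknown depth, a gene that was not called is not shown to be unchanged, and calls of genes under a few TPM rest on values whose counting error is unknown.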

Other observations

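Genes around the cholesterol pathway were looked at after the values had been seen. Of 9 further genes, 0 were called at 2 months and 7 were higher at 4 months, against 0.648% of all genes. Pcyt2, among the 7, is an enzyme of phospholipid and not of cholesterol synthesis. The members were picked with the calls known, so the count is not independent evidence. Acat2, which supplies acetoacetyl-CoA, ranged from 29.6 to 36.9 TPM in hemizygous mice of 4 months, against 20.7 to 26.3 TPM in wild-type mice (log2 difference 0.55 ± 0.10, limma adjusted p = 0.0143), and Stard4, a sterol transporter, ranged from 15.9 to 19.4 TPM in hemizygous mice, against 8.71 to 12.0 TPM in wild-type mice (0.77 ± 0.14, adjusted p = 0.00859). Of 11 fatty acid synthesis genes 1 was higher at 4 months, against the same 0.648%, which was Scd2, and of 14 genes of cholesterol uptake and export none was called at either age, with medians of 0.09 at 2 months and -0.03 at 4 months. In mice with the APP transgene alone, which share the wild-type controls, Sqle ranged from 40.6 to 46.5 TPM at 2 months and was at 29.7 and 37.2 TPM in the 2 mice of 4 months. In homozygous TASTPM mice Sqle ranged from 35.7 to 41.5 TPM at 2 months, and in tau mice from 22.1 to 40.2 TPM.

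Glycolysis and tubulin genes were also picked after the values were seen. Of 16 glycolysis genes 0 were called at 2 months (median 0.02) and 5 were higher at 4 months (median 0.24), against 0.648% of all genes, namely Pfkm, Tpi1, Eno2, Pkm and Ldhb. Eno2, the neuronal enolase, ranged from 713 to 754 TPM in hemizygous mice of 4 months, against 574 to 652 TPM in wild-type mice (0.29 ± 0.05, limma adjusted p = 0.0105), and from 528 to 644 TPM in hemizygous mice of 2 months, against 572 to 655 TPM in wild-type mice. Of 14 tubulin genes 3 were higher at 4 months, against the same 0.648%, and these were Tuba1a, Tubb3 and Tubb5. Tubb3, the neuronal β-tubulin, ranged from 191 to 207 TPM in hemizygous mice of 4 months, against 109 to 149 TPM in wild-type mice (0.69 ± 0.10, limma adjusted p = 0.00121). The median difference of all genes was also higher at 4 months, at 0.07, than at 2 months, at 0.01.

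Ndn, the imprinted gene of necdin, was at 81.3, 49.8, 80.0 and 70.7 TPM in hemizygous mice of 2 months, against 26.7, 36.7 and 44.8 TPM as the lowest, median and highest of the wild-type mice. At 4 months Ndn was at 75.7, 62.7, 71.8 and 48.4 TPM in hemizygous mice, against 21.6, 29.2 and 59.2 TPM in wild-type mice, where 1 wild-type mouse lay above the lowest hemizygous one. Its mean effect over both ages was 0.94 ± 0.15 (limma adjusted p = 0.00308), and it was chosen after its values were seen.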
